A study of Drosophila melanogaster with 6 samples.

Results

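The odorant receptor family was followed in RNA of the fly wing, an appendage that carries taste sensilla and no described olfactory sensilla. The members were all rows of the count files whose gene symbol is Or followed by a digit, plus Orco. This rule took 61 of the 17476 genes in the files, among them 1 pseudogene, Or98P, and it used no measured value. Polyadenylated RNA was sequenced from wings of Drosophila melanogaster cut off by hand 3 days after the adults emerged, with 3 libraries for each of 2 genotypes. The Poxn-labelled wings came from flies mutant for Poxn, with the allele Poxn 70, and lack chemosensory sensilla. The control-labelled wings came from w1118 Canton-S flies, the stock to which the mutant line had been backcrossed, so both genotypes share the w1118 background. Each library pooled the wings of many animals, and what part of Poxn the allele alters is not given in the sources used here. The labels put 8000 wings from 4000 flies into each replicate. The sources used here disagree on the total over all libraries, so the size of each pool is not certain.

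Odorant receptors of insects are membrane proteins of olfactory neurons. Most such neurons make 1 tuning receptor, which sets the odours a neuron responds to, together with Orco, the co-receptor that forms the ion channel with it. In the adult fly these neurons lie in the sensilla of the antenna and maxillary palp, which are divided by shape into basiconic, trichoid and coeloconic types, and other members of the family serve the larval nose. Taste neurons of the fly use other families, among them gustatory receptors, ionotropic receptors and ppk channels.

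Counts on genes numbered between 14021115 and 16182811 in the Poxn-labelled libraries and between 10074860 and 14269486 in the control-labelled libraries. The control-labelled libraries stood apart from each other. Their 50 most abundant genes took 62.4%, 60.4% and 37.7% of counts in replicates 1 to 3, and genes with transcripts under 600 nt took 30.6%, 20.6% and 16.6%, against ranges of 30.9 to 32.3% and 5.68 to 7.03% in the Poxn-labelled libraries. The scaling of the libraries therefore mattered. TMM factors, which set library sizes so that most genes do not change, gave effective sizes between 26119157 and 30099145 in the Poxn-labelled libraries and of 3183500, 5259027 and 18250160 in control-labelled replicates 1 to 3. The median log2 fold change (Poxn-labelled over control-labelled) of all 8973 genes tested was 0.0072 with TMM and 1.39 with libraries scaled by total counts on genes. The transcript of Poxn had 92, 86 and 85 counts in the libraries labelled Poxn, against 0, 6 and 3 counts in those labelled control, higher in the libraries labelled as mutant. Genes of pheromone-sensing taste neurons ran the way the labels say, with 1, 0 and 0 counts of the channel gene ppk23 in the Poxn-labelled libraries against 272, 195 and 890 counts in the control-labelled libraries, and 7, 7 and 11 counts of ppk29 against 78, 120 and 620 counts. Both fell in Poxn-labelled wings by more than 4-fold (adjusted p = 0.000373 each, edgeR). The estimates for ppk25, Ir52a, Ir76b and Ir25a were also negative (adjusted p = 0.00983, 0.0206, 0.0333 and 0.0343, edgeR, for Ir52a without a filter on low counts). By raw counts, however, control-labelled replicate 1 had 12 of Ir76b and 9 of Ir25a, fewer than any Poxn-labelled library. Every direction given here rests on the labels.

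Odorant receptor transcripts were scarce in wings of both labels. Over the 6 libraries together 48 of the 61 members had at least 1 count, but 35 of these had fewer than 10. At least 10 counts were reached by 13 members, or 21.3%, compared with 62.6% of all genes. The median member had 2 counts in total, against 88 for the median gene. All members together had 1281 counts, of which 664 fell in the Poxn-labelled and 617 in the control-labelled libraries. A total of 5 members had a count in every library, 17 had counts in 1 library, and 13 had a single count in all.

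The number of members detected differed mainly among the control-labelled libraries. With at least 1 count as the threshold, 27 members were detected in each of the 3 Poxn-labelled libraries, against 18, 16 and 27 in the control-labelled ones (mean 20.3 ± 5.86, SD, n = 3). The third control-labelled library thus equalled the Poxn-labelled ones. If every library were reduced to 10074860 counts, the expected numbers were 22.6, 21.9 and 23.5 in the Poxn-labelled libraries and 16.0, 16.0 and 22.9 in the control-labelled libraries. With at least 10 counts, the numbers were 5, 5 and 3 against 2, 4 and 4, and the groups overlapped. Of all genes in the files, between 67.6 and 67.9% were detected in the Poxn-labelled and between 58.5 and 68.9% in the control-labelled libraries, so the lower detection in control-labelled replicates 1 and 2 was not limited to this family. A count of 3, the limit that 0 counts allow, corresponds to 0.185 to 0.214 CPM (counts per 1000000 counts on genes) in the Poxn-labelled libraries and 0.210 to 0.298 CPM in the control-labelled libraries, and covers counting error only.

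**Figure D1:**
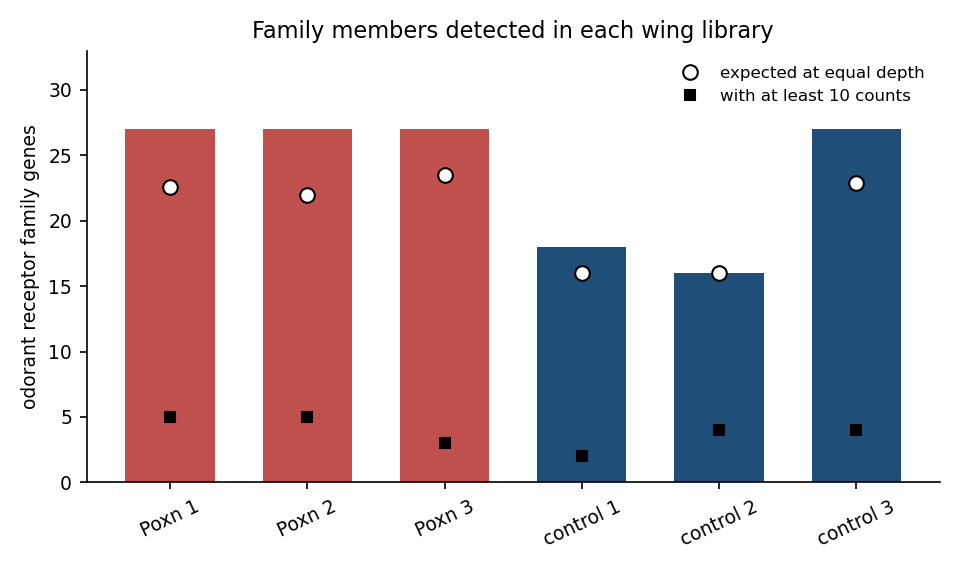
Number of odorant receptor family genes with at least 1 count (bars) in each of the 6 wing libraries, with the number expected at equal depth (open circles) and the number with at least 10 counts (squares). All 3 Poxn-labelled libraries reach 27, and the control-labelled libraries reach 18, 16 and 27.

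A few members carried most of the signal. The 4 most abundant, Or43b, Or47a, Or65b and Or45a, held 71.0% of all member counts, and the leading 7 held 83.9%, which left 206 counts for the remaining 54 members. The leading member was Or47a in Poxn-labelled replicates 1 and 3 (32.1% and 35.0% of member counts) and Or43b in replicate 2 (32.1%). In the control-labelled libraries it was a different gene each time, Or35a with 39.8% in replicate 1, Or65b with 165 of 330 counts in replicate 2 and Or47a with 36.0% in replicate 3. The 3 Poxn-labelled libraries were thus alike in make-up and the 3 control-labelled libraries were not.

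The summed level of the family showed the same contrast in spread. It was 15.2, 13.8 and 14.3 CPM in the Poxn-labelled libraries (mean 14.4 ± 0.685, SD, n = 3) and 7.57, 32.8 and 13.2 CPM in the control-labelled libraries (17.9 ± 13.2, SD, n = 3). The Poxn-labelled values lay inside the control-labelled range. Under TMM scaling the same sums were 8.64, 7.44 and 7.66 CPM in the Poxn-labelled libraries, against 30.8, 62.7 and 10.4 CPM in the control-labelled libraries, and the groups did not overlap. No test was made of these sums. In such bulk samples fewer cells of a type and less RNA per cell cannot be told apart.

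**Figure D2:**
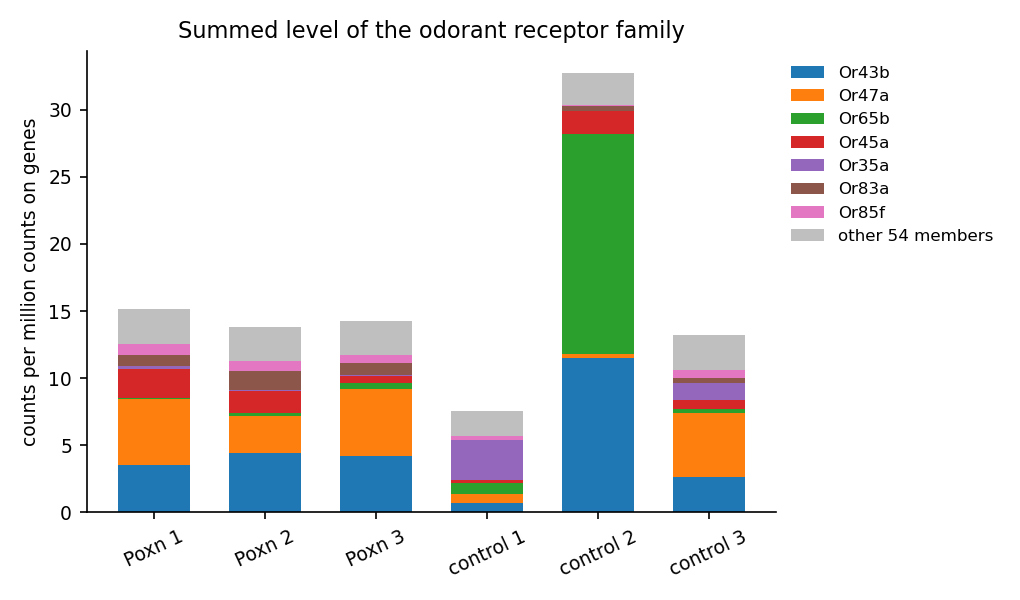
Summed level of the odorant receptor family in each wing library, in CPM, stacked by the 7 most abundant members and the other 54. The Poxn-labelled libraries sum to between 13.8 and 15.2, and the control-labelled libraries to 7.57, 32.8 and 13.2, with Or65b making up most of the excess in control-labelled replicate 2.

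Orco, the co-receptor, was among the scarce members. Orco (FBgn0037324, 3R:5407183-5412406, minus strand, release 6 assembly) had 0, 3 and 1 counts in the Poxn-labelled libraries and 0, 2 and 4 counts in the control-labelled libraries. Both groups held a library without a single Orco read, and the ranges overlapped. As FPKM, that is CPM per kilobase of the longest transcript, Orco reached 0.0444 ± 0.0485 in Poxn-labelled and 0.0827 ± 0.0747 in control-labelled libraries (SD, n = 3 each), which placed it 20th and 14th among the members by level. The genotypes could not be separated at this depth (log2 fold change −1.94, SE 1.32, adjusted p = 0.389 in edgeR's quasi-likelihood test without a filter on low counts). Several tuning receptors therefore had more reads than the co-receptor they act with.

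Ranked by FPKM, the leading tuning receptors of the Poxn-labelled wings were Or47a (3.09 ± 0.941) and Or43b (2.88 ± 0.333), followed by Or83a (0.743 ± 0.263), Or85f (0.603 ± 0.109) and Or45a (0.410 ± 0.243; SD, n = 3 throughout). The 2 leaders differed by less than their spread, as did Or83a and Or85f, and Or85f and Or45a. In the control-labelled wings Or65b led (4.76 ± 7.50), followed by Or43b (3.51 ± 4.08), Or47a (1.41 ± 1.82), Or35a (1.10 ± 1.17) and Or47b (0.302 ± 0.196). There every SD but that of Or47b exceeded its mean, and no neighbours in the order were separated beyond their spread.

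The comparison of the genotypes asked which receptor transcripts depend on the sensilla that Poxn-labelled wings lack. Of the 61 members only 4 had enough reads in enough libraries to pass edgeR's filter on low counts. None of the 4 met the criterion, which took the thresholds of the study, more than a 4-fold difference with an adjusted p under 0.01, and applied them to edgeR's quasi-likelihood test in place of DESeq2's Wald test. Across all 8973 genes tested this criterion was met by 0.0557% (5 genes) as higher and by 0.602% (54 genes) as lower in Poxn-labelled wings. At these shares 0 of 4 members is no result about the family. The 4 were also not an even draw. Or83a passed the filter with 10 counts or more only in Poxn-labelled libraries, whereas Or65b and Or35a, with 191 and 64 counts in total, failed it. At an unadjusted p under 0.05, 0 of the 4 members were higher and 1, Or43b, was lower, beside 14.1% of all tested genes as higher and 17.8% as lower. The median log2 fold change of the 4 members was −0.50, against 0.0072 over all genes tested.

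Or43b, a receptor of antennal basiconic neurons, had the most counts of the family (FBgn0026393, 2R:7920835-7922604, minus strand). It had 56, 72 and 59 counts in the Poxn-labelled libraries, against 9, 116 and 38 counts in the control-labelled libraries. The Poxn-labelled counts lay close together and inside the control-labelled range, which the second replicate widened. The log2 fold change was −2.01 (SE 0.84, adjusted p = 0.141, edgeR). It rested on that 1 library, since without control-labelled replicate 2 it was −0.08 (adjusted p = 0.931, edgeR).

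The exons of Or43b overlap those of Cul1, the scaffold of SCF ubiquitin ligases, by 575 bases on the opposite strand. Cul1 had 662, 661 and 611 counts in the Poxn-labelled libraries and 20, 137 and 238 counts in the control-labelled libraries. Per 100 Cul1 counts there were 8.46, 10.9 and 9.66 Or43b counts in the Poxn-labelled libraries, against 45.0, 84.7 and 16.0 in the control-labelled libraries. The ratio was thus higher in every control-labelled library, although Cul1 itself did not pass the test (log2 fold change 0.60, SE 0.48, adjusted p = 0.422, edgeR).

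Or47a, another receptor of antennal basiconic neurons (FBgn0026386, 2R:11250368-11251913, plus strand), had 77, 44 and 70 counts in the Poxn-labelled libraries. It had 9, 3 and 68 counts in the control-labelled libraries, where only the third replicate reached the Poxn-labelled range. The edgeR estimate was near 0 (log2 fold change −0.09, SE 0.62, adjusted p = 0.932), and its sign differed under 6 of 18 alternative settings, total counts among them. Or47a shares 163 exonic bases with Cpr47Ea, a cuticle protein gene of the opposite strand, which had 446, 238 and 236 counts in the Poxn-labelled and 22, 0 and 388 counts in the control-labelled libraries. Both genes were low in control-labelled replicates 1 and 2 and high in replicate 3. Per 100 Cpr47Ea counts, Or47a had 17.3, 18.5 and 29.7 counts in the Poxn-labelled libraries, against 40.9 and 17.5 counts in control-labelled replicates 1 and 3.

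Or83a, a receptor known from larval olfactory neurons (FBgn0037322, 3R:5397643-5399196, minus strand), had 12, 23 and 12 counts in the Poxn-labelled libraries and 0, 4 and 5 counts in the control-labelled libraries. The raw counts did not overlap, and the difference followed the scaling. The log2 fold change was 0.64 with TMM (SE 0.75, adjusted p = 0.596, edgeR) and 2.0 with total counts, and an exact permutation test of 3 against 3 libraries gave p = 0.4 and p = 0.1, the smallest value this design allows. Every exonic base of Or83a, 1362 in all, lies in exons of CG1172 on the opposite strand. CG1172 had 632, 1135 and 855 counts in the Poxn-labelled and 33, 214 and 283 counts in the control-labelled libraries. Or83a had 1.90, 2.03 and 1.40 counts per 100 CG1172 counts in the Poxn-labelled libraries, against 0, 1.87 and 1.77 in the control-labelled libraries. In the 5 libraries where Or83a was detected the ratio thus lay between 1.40 and 2.03.

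Or45a, known for the response of larvae to aversive odours (FBgn0033404, 2R:9345349-9348863, plus strand), had 34, 26 and 7 counts in the Poxn-labelled libraries, against 3, 17 and 10 counts in the control-labelled libraries. The ranges overlapped. The log2 fold change was −0.91 (SE 0.80, adjusted p = 0.468, edgeR), and it was 0.71 with total counts. No exon of Or45a is shared with another gene, although its span overlaps those of CG13739 and CG13954 on the opposite strand.

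**Figure D3:**
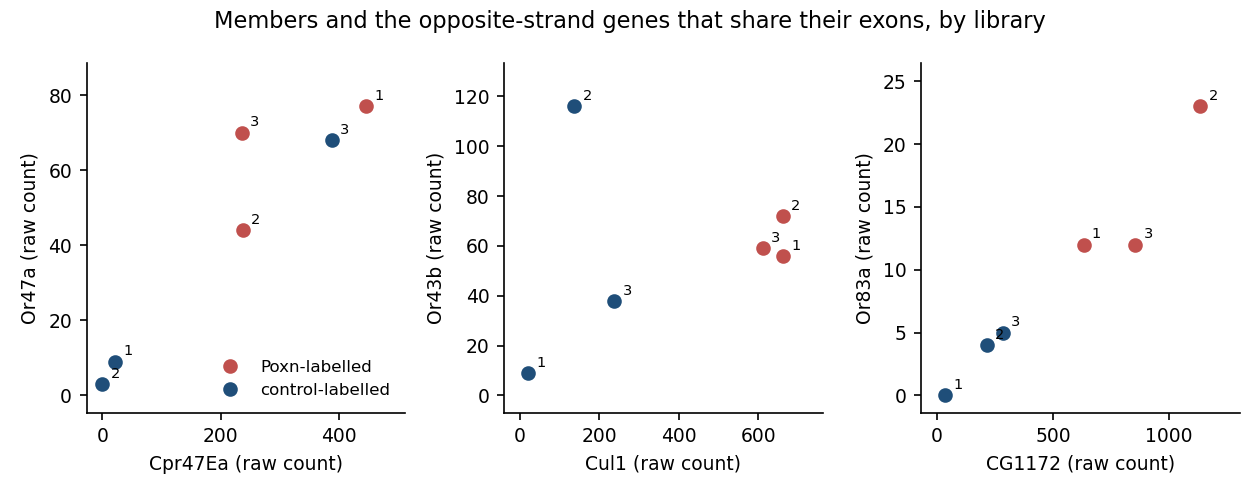
Raw counts of Or47a, Or43b and Or83a (vertical axes) against those of the opposite-strand genes whose exons overlap them (horizontal axes), 1 point per library with its replicate number. Or83a keeps between 1.40 and 2.03 counts per 100 CG1172 counts in the 5 libraries where it was detected, whereas Or43b ranges from 8.46 to 84.7 counts per 100 Cul1 counts.

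Reads of overlapping genes were assigned with regard to strand, as far as the counts show. Among genes that lie wholly inside exons of an abundant gene of the opposite strand, 30 of 31 had a count, against 1 of 9 for genes inside exons of the same strand. Of the 61 members, 42 overlap no other gene and held 35.3% of member counts, 9 share exonic bases with another gene and held 53.5%, and 10 overlap only by span and held 11.2%. Summed over the 42 members without overlap, the family had 3.54, 2.97 and 3.35 CPM in the Poxn-labelled libraries, against 5.18, 17.3 and 4.20 CPM in the control-labelled libraries, with no overlap of the groups. Single genes carried much of the control-labelled sums. Or35a had 39 of the 67 counts in replicate 1, and Or65b had 165 of the 174 counts in replicate 2. The difference in these sums is therefore not one of the family as a whole. Whether antisense reads of abundant neighbours contributed to the counts of Or43b, Or47a or Or83a was not tested.

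The members that failed the filter, which asks for reads in enough libraries, were examined with edgeR fitted to all 13883 genes with at least 1 count. None of the 48 members with a count met the criterion in either direction. At an unadjusted p under 0.05, 6 members were lower in Poxn-labelled wings (Or47b, Or43b, Or35a, Or59b, Or98a and Or65b) and 0 were higher, beside 12.9% and 11.7% of all genes. With libraries scaled by total counts, 4 of these were lower (Or47b, Or35a, Or59b and Or65b), beside 2.35% of all genes, and 1 member, Or9a, was higher, beside 21.8% of all genes.

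Within this unfiltered comparison, Or65b, Or47b and Or35a had the smallest p-values of the family. All 3 were more than 4-fold lower in Poxn-labelled wings with an adjusted p under 0.05, a threshold chosen after the values were seen, which 2.9% of all genes met. DESeq2, applied without a filter, placed the same 3 below the adjusted p of 0.01, as it did 5.19% of all genes.

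Or65b belongs to a tandem group of 3 receptors of antennal trichoid sensilla (FBgn0041624, 3L:6325612-6327049, plus strand). It had 2, 4 and 6 counts in the Poxn-labelled libraries, against 10, 165 and 4 counts in the control-labelled libraries. Control-labelled replicate 2 stood far above all others, and replicate 3 lay within the Poxn-labelled range. edgeR gave a log2 fold change of −6.07 (SE 1.37, adjusted p = 0.0294). Without control-labelled replicate 2 it was −3.09 (adjusted p = 0.0755, edgeR), and without replicate 3 it was −6.73 (adjusted p = 0.00701, edgeR), which met the criterion. The exact permutation test over libraries gave p = 0.2 under both scalings. Its neighbours did not share the high value, since Or65a had 4, 0 and 2 counts in the Poxn-labelled and 5, 0 and 3 counts in the control-labelled libraries, and Or65c had 1, 2 and 2 counts against 0, 0 and 3 counts.

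Or35a, the broadly tuned receptor of a coeloconic sensillum (FBgn0028946, 2L:15622068-15623558, minus strand), had 4, 1 and 2 counts in the Poxn-labelled libraries, against 39, 0 and 18 counts in the control-labelled libraries. Control-labelled replicates 1 and 3 were high and replicate 2 had none, so the groups overlapped. In edgeR the log2 fold change was −5.32 (SE 1.41, adjusted p = 0.0495). Without control-labelled replicate 1 it was −2.58 (adjusted p = 0.264, edgeR), and without replicate 2, the library at 0, it was −5.92 (adjusted p = 0.00204, edgeR), which met the criterion. The exact permutation test gave p = 0.4 under both scalings.

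Or47b, a receptor of antennal trichoid neurons that drives male courtship (FBgn0026385, 2R:11319710-11321312, minus strand), was the one member with at least 10 counts whose libraries were separated under both scalings. The 3 others separated in this way, Or9a, Or67b and Or94b, had fewer than 10 counts and were picked out after their values were seen. It had no count in the 3 Poxn-labelled libraries, against 6, 1 and 8 counts in the control-labelled libraries. The control-labelled level was 6.17-fold above a floor of 3 counts over the Poxn-labelled group with total counts and 15.7-fold above it with TMM. These ratios take the control-labelled counts as exact. The exact permutation test gave p = 0.1 under both scalings, the smallest value possible with 3 against 3 libraries. Or47b was described singly because its libraries did not overlap, so that choice fixed this p-value in advance. For the gene chosen in this way, edgeR without a filter gave an adjusted p of 0.0413. The low level limits this result, since the second control-labelled library held a single read, and leaving out 1 library at a time moved the adjusted p between 0.0107 and 0.124 (edgeR). Or47b overlaps no other gene.

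**Figure D4:**
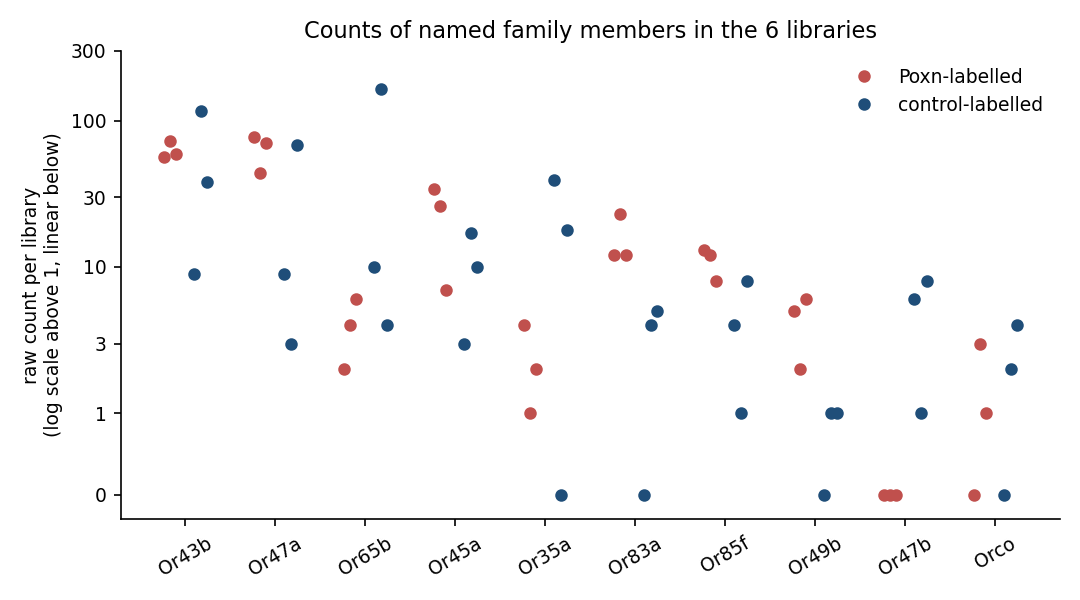
Raw counts of the 10 members described singly, 1 point per library, on an axis that is logarithmic above 1 and linear below. Or47b is at 0 in all 3 Poxn-labelled libraries and at 6, 1 and 8 in the control-labelled libraries, whereas Or65b reaches 165 in 1 control-labelled library and no more than 10 in the others.

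Or85f and Or49b, both receptors of antennal basiconic neurons, depended on the scaling. Or85f (FBgn0037685, 3R:9398190-9399551, plus strand) had 13, 12 and 8 counts in the Poxn-labelled libraries, against 4, 1 and 8 counts in the control-labelled libraries. Or49b (FBgn0028963, 2R:12842665-12844704, plus strand) had 5, 2 and 6 counts in the Poxn-labelled libraries, against 0, 1 and 1 counts in the control-labelled libraries. In CPM scaled by total counts both were higher in every Poxn-labelled library than in any control-labelled library (exact permutation p = 0.1 each, the smallest possible). Or49b was described singly because of this separation, so that choice fixed its permutation p-value in advance. With TMM the groups overlapped for both, and edgeR without a filter gave log2 fold changes of −0.37 for Or85f (SE 0.89, adjusted p = 0.808) and 1.05 for Or49b (SE 1.29, adjusted p = 0.645). With total counts the same fit gave 1.09 for Or85f and 2.22 for Or49b, beside a median of 1.24 over all genes in that fit.

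**Figure D5:**
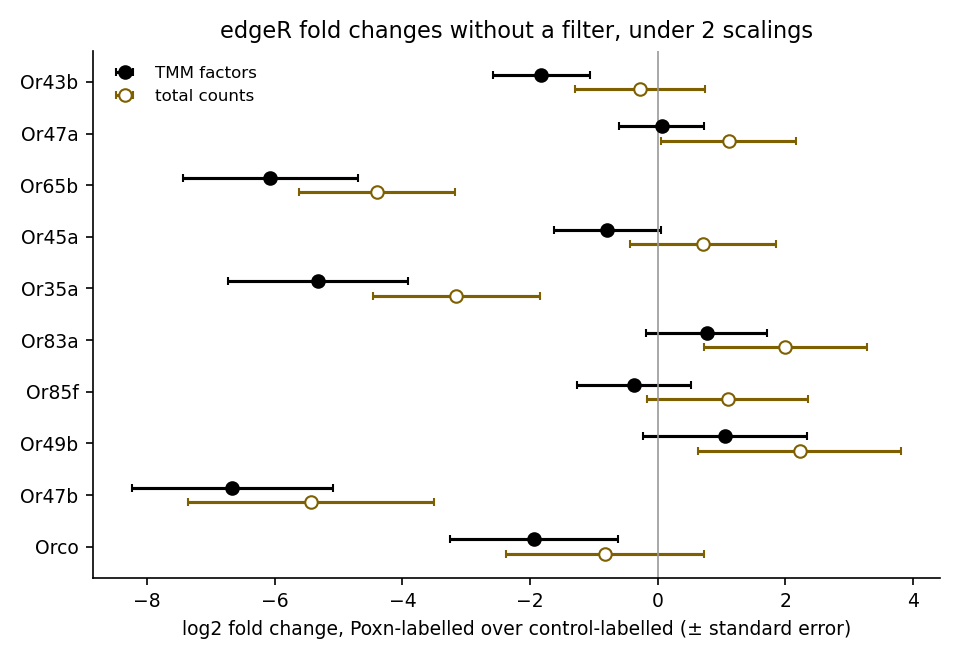
Log2 fold changes (Poxn-labelled over control-labelled, ± standard error) of the 10 members from edgeR without a filter, with TMM factors (filled) and with total counts (open). Estimates for Or65b, Or47b and Or35a lie below −3 under both scalings, whereas those of Or45a and Or85f lie on different sides of 0.

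Among the 13 members with at least 10 counts, the libraries of the genotypes did not overlap for 3 members that were higher (Or83a, Or85f and Or49b) and 1 that was lower (Or47b) in Poxn-labelled wings when total counts were used. Of all 10935 genes with at least 10 counts, 50.4% were separated as higher and 2.8% as lower under this scaling. With TMM, 0 of the 13 were separated as higher and 1, Or47b, as lower, beside 19.6% and 16.9% of all genes.

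The receptors present were drawn from every sensillum class. The 26 receptors of antennal basiconic neurons held 58.9% of member counts, with 165, 142 and 157 counts in the Poxn-labelled libraries and 30, 137 and 124 counts in the control-labelled libraries. The 12 receptors of trichoid neurons held 19.4%, with 18, 8 and 12 counts in the Poxn-labelled libraries and 22, 166 and 22 counts in the control-labelled libraries, and Or65b made up most of the largest value. The 13 receptors assigned here to larvae held 14.5% (51, 61 and 24 counts in the Poxn-labelled libraries against 6, 24 and 20 counts in the control-labelled libraries). The 7 receptors of the maxillary palp held 1.41% and had at most 9 counts in any library. The leading members of these 4 classes, Or43b, Or65b, Or45a and Or71a, had 350, 191, 97 and 9 counts in total.

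Among members that lie side by side in the genome, those of the Or65 group differed clearly in level. Of 8 groups of members less than 5000 bp apart, the group of Or65a, Or65b and Or65c had 213 counts, of which Or65b alone had 191, while Or33a, Or33b and Or33c had none. The other 6 groups had between 4 and 17 counts, too few to judge whether neighbours shared their levels. Or59b had 12 of its 14 counts in control-labelled replicate 2, the library in which Or65b was high, and Or85c had 3, 8 and 2 counts in the Poxn-labelled libraries against 0, 2 and 0 counts in the control-labelled libraries. Both genes were picked out here after their values were seen. By chromosome, the 15 members on 2R held 60.4% of counts, the 11 on 3L 19.0%, the 17 on 3R 12.9%, the 10 on 2L 5.62% and the 8 on X 2.03%.

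A total of 15 members had counts only in Poxn-labelled libraries, none with more than 9 in total, and 7 only in control-labelled libraries, none with more than 15. Or9a, an antennal receptor singled out after its values were seen, led the first set with 5, 3 and 1 counts in the Poxn-labelled libraries against none in the control-labelled libraries. This was 2.43-fold above a floor of 3 counts over the control-labelled group with total counts, with the Poxn-labelled counts taken as exact. With TMM the level lay under the floor and gives no fold. Or47b led the second set. The 13 members at 0 in all 6 libraries were Or1a, Or10a, Or19b, Or30a, Or33a, Or33b, Or33c, Or45b, Or49a, Or63a, Or82a, Or88a and the pseudogene Or98P. They made up 21.3% of the family, and 20.6% of all genes were likewise without a count. For 2 of them the 0 is uncertain, because Or10a shares most of its exons with the gustatory receptor gene Gr10a on the same strand and Or19b is a near-identical copy of Or19a, so that reads common to both genes may have been left uncounted.

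Genes that act beside odorant receptors in the antenna were also mostly scarce. Of 15 antennal olfactory genes, 14 had a count, 4 were tested and none met the criterion. The odorant-binding protein gene Obp83b had no count in any library, a10 had 1 count in all, and Obp83a had 1, 4 and 6 counts in the Poxn-labelled libraries against 0, 3 and 8 counts in the control-labelled libraries. Ir8a, the co-receptor of acid-sensing ionotropic receptors, had 2, 0 and 1 counts against 1, 0 and 2 counts. Snmp1, a membrane protein needed for pheromone responses, was an exception in level, with 1028, 1079 and 1462 counts in the Poxn-labelled libraries against 96, 47 and 372 counts in the control-labelled libraries (log2 fold change 1.12, SE 0.46, adjusted p = 0.138, edgeR). lush, the binding protein of a male pheromone, had 56, 82 and 57 counts in the Poxn-labelled libraries against 0, 1 and 39 counts in the control-labelled libraries. Summed over the 8 genes of antennal support and olfactory cells, the level was 70.7 to 113 CPM in the Poxn-labelled and 6.85 to 32.9 CPM in the control-labelled libraries with total counts, and 40.2 to 60.7 CPM against 13.1 to 31.7 CPM with TMM. Snmp1 made up most of this sum in every library. The 4 tested genes of the 8 did not share a direction with TMM. The estimates for Snmp1 and lush were above 0. Those for Obp84a (log2 fold change −0.509, adjusted p = 0.575, edgeR) and Obp28a (−0.988, adjusted p = 0.371, edgeR) were below 0. These 4 tested genes had a median log2 fold change of 1.57 with total counts and 0.31 with TMM. The part of these genes' source cells in the receptor counts was not tested.

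Of the 10 genes that steer receptor choice or the formation of olfactory sensilla, 9 had a count and 5 were tested. At the criterion 1 of the 5 fell in Poxn-labelled wings, beside 0.602% of all tested genes. That gene was acj6, a POU-domain factor that selects receptors in olfactory neurons. It had 11, 9 and 3 counts in the Poxn-labelled libraries, against 16, 17 and 94 counts in the control-labelled libraries. With TMM its level was 0.270 ± 0.143 CPM in Poxn-labelled and 4.47 ± 1.07 CPM in control-labelled libraries (SD, n = 3 each). This was a log2 fold change of −4.01 (SE 0.56, adjusted p = 0.00996, edgeR). The call lay at the edge of the criterion and held under 7 of 17 alternative settings. The log2 fold change ran between −4.39 and −2.67 over these settings, with adjusted p-values up to 0.105, and was −2.67 (adjusted p = 0.0877, edgeR) with total counts. Leaving out any Poxn-labelled library, or control-labelled replicate 1 or 3, ended the call. The ecdysone-response factor Eip93F had a log2 fold change of −2.12 (adjusted p = 0.0650, edgeR). The proneural genes of olfactory sensilla were all but absent, with no count for amos and 1 count in all for ato. Over the 5 tested genes the median was 0.20 on the log2 scale, against 0.0072 over all genes.

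Markers of other cell types were measured beside the receptors, and their sums depended on the scaling. Wing identity genes (vg, nub, ap and sd) summed to 203 to 223 CPM in the Poxn-labelled libraries against 25.6 to 114 CPM in the control-labelled libraries with total counts, but to 109 to 120 CPM against 88.9 to 140.1 CPM with TMM. The 7 neuronal genes measured summed to 1026 to 1165 CPM in the Poxn-labelled libraries against 172 to 737 CPM in the control-labelled libraries with total counts, and to 551 to 640 CPM against 329 to 1404 CPM with TMM. Syx1A made up most of this sum in every library. With TMM the log2 fold changes of the 7 genes ran from −1.67 for brp to 1.38 for nSyb. Flight muscle genes summed to 90.7 to 296 CPM in the Poxn-labelled libraries against 13.4 to 100.2 CPM in the control-labelled libraries with total counts, with 2583 counts of Act88F in Poxn-labelled replicate 2, and with TMM to 48.7 to 159 CPM against 37.6 to 78.4 CPM. Eye genes summed to 21.5 to 37.9 CPM in the Poxn-labelled and 29.4 to 97.5 CPM in the control-labelled libraries with total counts, and to 11.5 to 20.4 CPM against 52.7 to 187 CPM with TMM, nearly all of them norpA, a phospholipase C with roles outside the eye, while the rhodopsin genes ninaE, Rh3 and Rh4 had at most 2 counts in any library. The 3 yolk protein genes summed to less than 1 CPM in every library with total counts. None of the genes in these lists met the criterion.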

How the data were processed

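The authors deposited raw counts of reads per gene. Trimming was done by Trim Galore 0.4.0 and alignment by STAR 2.4.2a, against FlyBase r6.09. The submitters' processing notes name HTSeq, and its strand setting is not given in the sources used here. Reads on no gene (47.9 to 58.6% of each library's sum) and ambiguous reads (1.24 to 2.69%) entered neither library sizes nor tests. The deposited DESeq2 comparison of the authors, with fold changes, p-values and 6 per-library columns, was not used. Ensembl's annotation of the release 6 assembly gave symbols, positions and lengths for 17229 of 17476 genes.

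Genotypes were compared with edgeR 4.0.16 in R 4.3.3, by its quasi-likelihood test with TMM factors, filterByExpr (minimum count 10), prior count 0.125 and p-values adjusted by Benjamini-Hochberg over all genes tested. The criterion was more than 4-fold with an adjusted p under 0.01. Single members were also compared by exact two-sided permutation tests on CPM. P-values measure the spread between libraries that the labels call independent replicates. Members described singly were Orco, those passing the filter, those with at least 30 counts, those with at least 10 counts and no overlap of the genotypes, and by name those at 0. The members and lists were chosen with earlier results of these data known. Receptor classes follow textbook knowledge of sensilla. Of 8 neuronal markers, 7 matched the annotation. Alternatives were RLE size factors, total counts, length offsets, TMM without the 50 most abundant genes, DESeq2 1.42.0, limma voom (limma 3.58.1), a robust fit, other filters, thresholds and prior counts, a replicate block and each library left out. The scripts were tested on simulated data.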

Additional observations from a re-analysis of the deposited data

How the results depend on the processing

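The count of members at the criterion was 0 higher in Poxn-labelled wings under 23 alternatives, and 0 lower under 20 of them. The other 3, chosen after seeing the data, dropped the filter: 3 members (Or65b, Or47b and Or35a) were lower with DESeq2 without or with its prior, and 3 with edgeR at an adjusted p under 0.05. The members lower at an unadjusted p under 0.05 numbered 1 as reported, 0 with total counts, 0 with limma voom, 0 with the replicate block, 6 without a filter and 4 without a filter and with total counts, where 1 was higher. They numbered 1 to 2 with each library left out. Without a filter, the replicate block gave log2 fold changes of −4.57 for Or65b (adjusted p = 1.1e-05) and −4.39 for Or35a (adjusted p = 0.00272, both edgeR). Both then met the criterion, and Or47b did not (−6.62, adjusted p = 0.0238). Or65b also met it without a filter and without control-labelled replicate 3, and Or35a without a filter and without control-labelled replicate 2, so that each met it in 4 of 16 unfiltered alternatives and Or47b in 2. Deviations of same-numbered libraries correlated at 0.12, 0.14 and −0.07, and those of differently numbered libraries at −0.23 to 0.11. With 3 libraries per group, these values cannot decide whether same-numbered libraries were paired. Over 18 settings Or47a changed sign in 6 and Or45a in 2, and over 16 settings Or85f changed sign in 2. The other 7 members described singly kept their direction. Mean members detected were 10.3 in Poxn-labelled and 9 in control-labelled libraries at 3 counts, 4.33 and 3.33 at 10 counts, and 22.7 in Poxn-labelled libraries at equal depth. The summed level in Poxn-labelled wings was 7.91 CPM with TMM, 7.56 with RLE, 10.4 without Or43b and 3.29 over members without overlap, and in control-labelled wings 34.6 with TMM and 36.4 with RLE. Over all genes, calls at the criterion, 5 higher and 54 lower as reported, ranged from 66 and 673 with DESeq2 and 85 and 63 with total counts to 0 and 3 without Poxn-labelled replicate 1. The causes of these differences were not tested. With a median of 2 counts per member, most members could not be compared at this depth.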
